A study of Mus musculus with 20 samples.

Results

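The transcripts of 38 splicing factor genes were followed in cultured thymic group 2 innate lymphoid cells (ILC2), lymphocytes without antigen receptors that make type 2 cytokines. The genes were chosen by symbol and selected on no measured value, although the families were proposed with earlier results of these data in view. They come from 11668 genes listed in the count tables and comprise 19 heterogeneous nuclear ribonucleoprotein (hnRNP) genes, 10 serine/arginine-rich (SR) genes and 9 genes of the SF3A and SF3B complexes. All 38 were listed for IL25R+ cells, of 10696 genes there, and 36 for ST2+ cells, of 10580 genes, where Hnrnpa3 and Hnrnpd were not listed.

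Splicing removes introns from pre-messenger RNA. SF3A and SF3B belong to the U2 small nuclear ribonucleoprotein (snRNP) and hold it on the branch site of the intron. SR proteins bind exonic enhancers and promote the use of nearby splice sites, whereas hnRNP proteins coat nascent transcripts and often repress them, so that the balance between the families shapes which exons are kept. Many of these genes also adjust their own transcripts through alternative exons.

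Male wild-type (WT) mice were the source of all cells, which were sorted from thymus as IL25R+ or ST2+ ILC2 (receptors for IL-25 and for IL-33). Every well received IL-7 at 10 ng/mL, and cells were kept for 12 h and, after a change of medium, for a further 24 h before 24 h of treatment. IL25R+ cells were given IL-25, IL-33, both cytokines together, each at 10 ng/mL, or vehicle (PBS), with 3 libraries a group, and ST2+ cells were given IL-33 at the same dose or vehicle, with 4 libraries a group. RNA was measured by bulk MARS-seq, which counts the 3′ ends of polyadenylated transcripts and so does not tell splice isoforms apart. No label says whether replicates came from separate mice, so p-values measure only the spread between these libraries, which may be technical.

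Total counts were 834913 to 1880906 per IL25R+ library and 537999 to 5453444 per ST2+ library. All 12 ILC2 markers were listed, and their summed level was 3750 to 4548 CPM (counts scaled to a common library size) in IL25R+ libraries and 2388 to 4544 CPM in ST2+ libraries. Of 8 T cell markers 7 were listed, at a summed 1587 to 2246 CPM in IL25R+ and 213 to 714 CPM in ST2+ libraries, and their part in the results was not tested. Il17rb, the gene of the IL-25 receptor, was at 10.8 to 34.0 CPM in IL25R+ and 12.2 to 125 CPM in ST2+ libraries. The IL25R+ libraries also fell on opposite sides by Glycam1, a secreted glycoprotein: it was above 10 CPM in 7 libraries (IL-33 library 3, the 3 with both cytokines and the 3 with vehicle) and below it in the other 5, so that the IL-25 and vehicle groups lie on opposite sides. IL-33 library 1 of IL25R+ cells held 10816 CPM of Aire, a thymic epithelial gene, against 28.2 and 0 CPM in IL-33 libraries 2 and 3. Of 6 thymic epithelium markers only 2, Aire and Epcam, were listed, and Foxn1, Krt5, Krt8 and Psmb11 were not. Their sum in that library was 10826 CPM, nearly all of it Aire, so the rest of the list does not show epithelial cells there. Among ST2+ libraries, IL-33 libraries 2 and 3 stood apart from IL-33 libraries 1 and 4 by the chi-square per degree of freedom between counts. Against libraries 1 and 4 it was 57.3 and 58.5 for library 2, and 24.2 and 24.5 for library 3. It was 29.3 between libraries 2 and 3, and 4.07 between libraries 1 and 4.

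Below, a level is in CPM over the library size after scaling with trimmed means (TMM), a change is a log2 fold change with its standard error (SE), and a gene rose or fell where edgeR's quasi-likelihood test with Benjamini-Hochberg adjustment over all genes tested gave an adjusted p under 0.05. In bulk RNA, fewer cells of a type and less RNA per cell cannot be told apart. Of the members, 37 had enough counts to be tested in IL25R+ cells (Hnrnpd did not, at 0.547 to 6.57 CPM) and 34 in ST2+ cells (Hnrnph2 and Sf3b1 did not).

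The promoters are shown first of the 5 members that rose with IL-33 in IL25R+ cells, so that their sequences can be set beside the values that follow. They run from 250 bases before to 50 bases after the RefSeq transcript start (GRCm38.p6), 5′ to 3′, and for genes with several starts the one nearest the gene's annotated start was taken. Promoters of Hnrnpf at its other starts, not shown, held matches to the CCAAT box, the E-box and the NF-kB motif. Those of Hnrnph1 at its other starts held CCAAT boxes or no match. Capitals mark a match, on either strand, to any of 8 motifs searched: the E-box CACGTG, the ETS motif CCGGAAGT, the cyclic AMP response element TGACGTCA, the GATA motif AGATAA, the CCAAT box, and the longer motifs of NRF1, YY1 and NF-kB.
Hnrnph1 (chr11:50376740-50377039, + strand): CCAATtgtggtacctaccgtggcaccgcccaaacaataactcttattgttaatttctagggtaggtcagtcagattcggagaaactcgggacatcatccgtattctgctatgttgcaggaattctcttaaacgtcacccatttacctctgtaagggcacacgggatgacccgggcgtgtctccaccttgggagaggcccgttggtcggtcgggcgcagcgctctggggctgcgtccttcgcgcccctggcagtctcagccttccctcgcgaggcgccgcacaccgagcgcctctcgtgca
Hnrnpf (chr6:117900090-117900389, + strand): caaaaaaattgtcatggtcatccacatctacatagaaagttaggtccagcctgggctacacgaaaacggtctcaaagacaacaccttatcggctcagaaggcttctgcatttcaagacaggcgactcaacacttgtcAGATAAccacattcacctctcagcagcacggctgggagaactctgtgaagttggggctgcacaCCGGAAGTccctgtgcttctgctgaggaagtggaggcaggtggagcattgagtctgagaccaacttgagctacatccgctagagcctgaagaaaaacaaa
Hnrnpl (chr7:28810640-28810939, + strand): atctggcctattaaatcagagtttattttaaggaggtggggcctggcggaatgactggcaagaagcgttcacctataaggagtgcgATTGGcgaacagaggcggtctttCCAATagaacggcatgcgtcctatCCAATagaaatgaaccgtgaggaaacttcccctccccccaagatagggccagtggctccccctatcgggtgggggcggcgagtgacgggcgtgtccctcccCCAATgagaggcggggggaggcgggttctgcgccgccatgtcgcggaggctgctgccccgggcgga
Hnrnpm (chr17:33685409-33685708, - strand): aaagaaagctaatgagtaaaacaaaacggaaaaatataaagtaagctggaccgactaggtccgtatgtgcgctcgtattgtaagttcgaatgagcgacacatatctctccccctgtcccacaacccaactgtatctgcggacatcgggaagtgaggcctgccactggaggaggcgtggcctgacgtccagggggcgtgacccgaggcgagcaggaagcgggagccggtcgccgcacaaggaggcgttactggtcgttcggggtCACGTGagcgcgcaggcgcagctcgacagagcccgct
Hnrnpab (chr11:51606832-51607131, - strand): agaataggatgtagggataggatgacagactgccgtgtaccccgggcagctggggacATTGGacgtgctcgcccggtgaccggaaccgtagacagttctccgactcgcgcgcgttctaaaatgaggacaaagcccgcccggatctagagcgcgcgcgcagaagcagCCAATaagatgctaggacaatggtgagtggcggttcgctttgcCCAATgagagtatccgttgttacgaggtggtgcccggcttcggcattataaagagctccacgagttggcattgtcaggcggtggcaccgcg
Of the members, 34 matched the RefSeq table, with 46 promoters among 32851. The ETS motif was in 21.7% of member promoters and 3.89% of all, and the CCAAT box in 23 of 46 and 37.4%. The E-box was in 10.9% of member promoters and 7.15% of all, NRF1 in 2.17% and 0.971%, YY1 in 2.17% and 0.633%, and NF-kB in 2.17% and 1.47%. The GATA motif was in 6.52% of member promoters and 11.2% of all, and the cyclic AMP response element in 0 of 46 and 1.79%. No test was made of these shares, which describe letters and not binding.

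IL-33 on its own was compared with vehicle in IL25R+ cells. The hnRNP genes Hnrnph1, Hnrnpf, Hnrnpl, Hnrnpm and Hnrnpab rose, 5 of 37 members tested, where 0.181% of all 8850 genes tested were called higher. No member fell, where 0.0565% of all genes were called lower (edgeR). The median change was 0.23 over the members and 0.01 over all genes, and 14 members had an unadjusted p under 0.05. No SR or SF3 gene passed: 5 of 10 SR and 2 of 9 SF3 genes had an unadjusted p under 0.05, and DESeq2 called 1 SR gene, Srsf5, and 0 SF3 genes. Of the 5 hnRNP genes that rose, DESeq2 called all but Hnrnpm.

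Hnrnph1 and Hnrnpf encode related proteins that bind runs of G in RNA. Hnrnph1 (11:50376990-50386528, + strand, mm10) was at 134, 156 and 136 CPM in IL-33 libraries and 78.5, 70.3 and 87.3 CPM in vehicle libraries. All 3 IL-33 libraries lay above all 3 vehicle libraries, with a change of 0.84 ± 0.14 (edgeR adjusted p = 0.0288). Hnrnpf (6:117900324-117925622, + strand) was at 186, 226 and 257 CPM with IL-33 and 152, 130.0 and 101 CPM with vehicle, again without overlap, a change of 0.79 ± 0.15 (edgeR adjusted p = 0.0363). Hnrnpl (7:28808541-28822266, + strand), whose protein binds CA-rich RNA, was at 83.3, 85.4 and 78.5 CPM with IL-33 and 51, 42.2 and 45.5 CPM with vehicle, a change of 0.82 ± 0.17 (edgeR adjusted p = 0.0455). In none of these 3 genes did the groups overlap. They did not overlap for 11 of the 37 members in all, where 14.5% of all genes did not.

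The other pair was highest in IL-33 library 1, the library with Aire. Hnrnpm (17:33646233-33686860, − strand), a splicing regulator of the hnRNP M type, was at 851, 268 and 228 CPM with IL-33 and 184, 166 and 145 CPM with vehicle, a change of 1.44 ± 0.30 (edgeR adjusted p = 0.0455). Hnrnpab (11:51600100-51606847, − strand), a binder of AU-rich RNA, was at 1039, 564 and 616 CPM with IL-33 and 449.9, 396 and 446 CPM with vehicle, a change of 0.78 ± 0.17 (edgeR adjusted p = 0.0455). Without IL-33 library 1 the changes were 0.59 for Hnrnpm and 0.46 for Hnrnpab, and neither passed (edgeR adjusted p = 0.0754 and 0.107). Libraries 2 and 3 with IL-33 still lay above every vehicle library for both genes. The 3′ end of Hnrnpab overlaps Phykpl on the opposite strand, and the strand of counting is not given in the sources used here, so its counts are uncertain.

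Among the members that did not pass, the lowest changes were those of Srsf1 (-0.70 ± 0.20) and Srsf3 (-0.53 ± 0.32), SR proteins of constitutive and alternative splicing. Every one of the 5 calls was lost in some fits. Hnrnph1 lost its call without IL-25 library 2 or 3 or vehicle library 1, 2 or 3 (adjusted p = 0.0547 to 0.115). Hnrnpf lost its call without IL-25 library 1, 2 or 3, both-cytokine library 3 or vehicle library 2 or 3 (adjusted p = 0.0514 to 0.362). Hnrnpl kept its call only without IL-33 library 2 or 3 or both-cytokine library 2 among the fits that left out 1 library (adjusted p = 0.0506 to 0.362 in the others). Hnrnpab kept its call only without IL-33 library 2 or 3 among the fits that left out 1 library (adjusted p = 0.0644 to 0.362 in the others). Hnrnpm kept its call only without IL-33 library 2 or 3 among the fits that left out 1 library (adjusted p = 0.0621 to 0.362 in the others). The count of members called was 0 without IL-25 library 2 or 3 or vehicle library 2 or 3, 1 without IL-25 library 1, both-cytokine library 3 or vehicle library 1, 2 without IL-33 library 1 or both-cytokine library 1, and 3 without both-cytokine library 2. These fits share the spread of all 4 groups, and across all genes only 21 were called. The side of Glycam1 was also added as a term. Of the 4 groups only IL-33 has libraries on each side, with library 3 alone on the vehicle side. That fit therefore sets IL-33 library 3 alone against the vehicle libraries, and cannot tell the side from that 1 library. Hnrnph1 and Hnrnpf passed in it, whereas Hnrnpl, Hnrnpm and Hnrnpab did not. Sf3b3 (0.82) passed as higher, and Hnrnpa0 (-1.06) and Hnrnpu (-1.29) as lower. Cycling cell markers (7 of 7 listed) summed to 297 to 331 CPM with IL-33 and 207 to 261 CPM with vehicle, and their part in these changes was not tested.

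**Figure D1:**
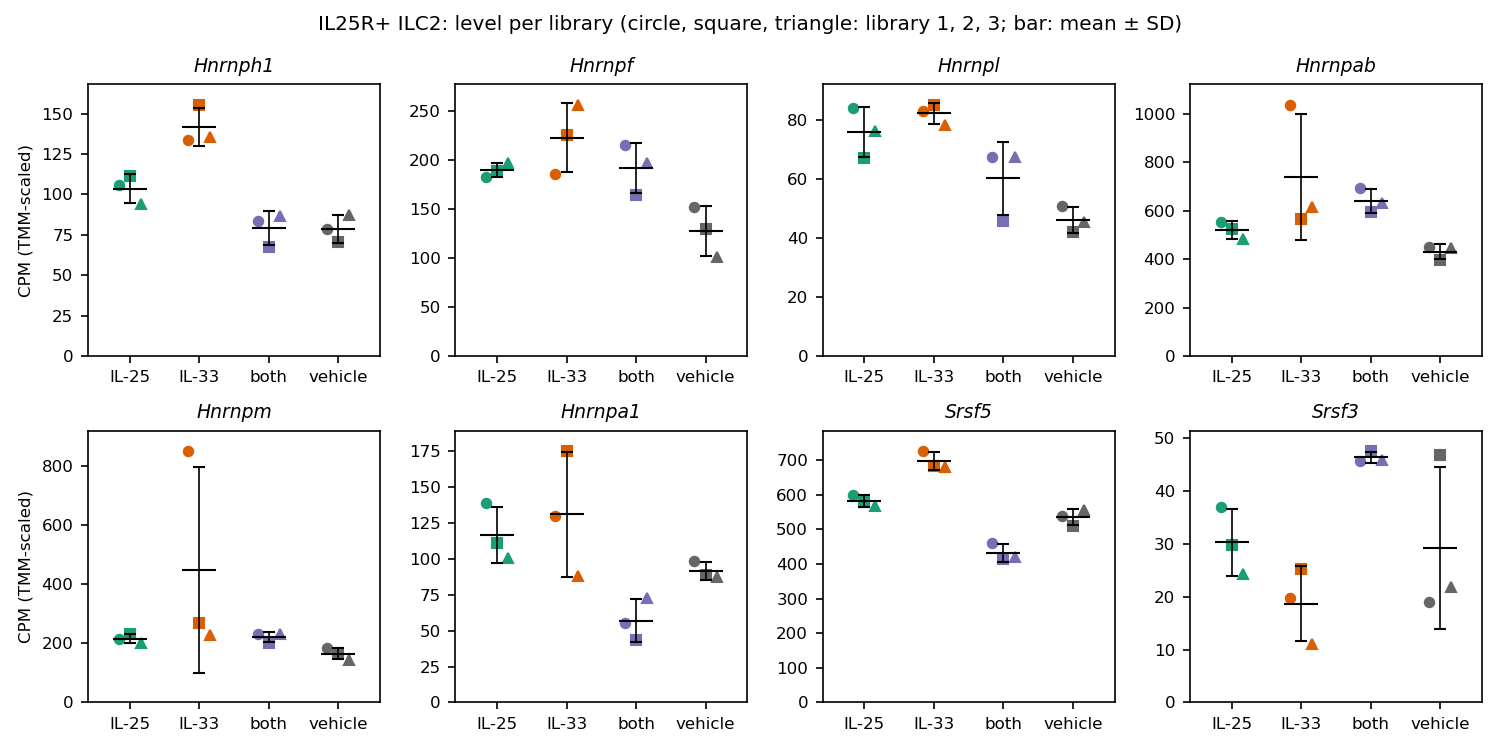
TMM-scaled CPM of 8 members in each IL25R+ library treated with IL-25, IL-33, both cytokines or vehicle. Symbols mark the library number and bars the mean ± SD of 3 libraries, and all 3 IL-33 libraries of Hnrnph1 lie above the other 9.

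IL-25 on its own was compared with vehicle in the same table. Hnrnpl, Hnrnpf and Srsf9 rose, 3 of 37 members, where 9.07% of all genes were called higher, and Hnrnpul2 and Srsf1 fell, 2 of 37, where 5.9% of all genes were called lower. Both shares are near those of all genes. The median change was 0.12 over the members and -0.03 over all genes. No SF3 gene passed (edgeR), with 1 of 9 at an unadjusted p under 0.05 and 0 called by DESeq2.

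Hnrnpl was at 84.2, 67.3 and 76.5 CPM with IL-25, against 51, 42.2 and 45.5 CPM with vehicle, a change of 0.70 ± 0.17 (edgeR adjusted p = 0.00705). Hnrnpf was at 183, 189 and 198 CPM with IL-25, against 152, 130.0 and 101 CPM with vehicle, a change of 0.56 ± 0.15 (edgeR adjusted p = 0.015). Srsf9 (5:115327177-115333080, + strand), a small SR protein, was at 81.6, 73 and 84.2 CPM with IL-25, against 53.6, 51.5 and 52.2 CPM with vehicle, a change of 0.60 ± 0.16 (edgeR adjusted p = 0.0163). For all 3 genes every IL-25 library lay above every vehicle library.

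Hnrnpul2, a nuclear protein related to hnRNP U, was at 50.5, 58.1 and 42.4 CPM with IL-25 and 64.7, 78.5 and 79.7 CPM with vehicle, a change of -0.55 ± 0.17 (edgeR adjusted p = 0.0312). Srsf1 (11:88047373-88053755, + strand), the founding SR protein, was at 41.5, 36.1 and 37.6 CPM with IL-25 and 43.8, 70.3 and 61.7 CPM with vehicle, a change of -0.57 ± 0.19 (edgeR adjusted p = 0.0479). The IL-25 libraries of both genes lay below all vehicle libraries. Among the changes that did not pass were 0.80 ± 0.29 for Srsf7, -0.70 ± 0.31 for Srsf10 and -0.64 ± 0.25 for Hnrnpu.

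The groups did not overlap for 19 of 37 members, where 35.3% of all genes did not. Hnrnpl kept its call without any 1 library. Hnrnpf lost its call without IL-25 library 3 or vehicle library 3 (adjusted p = 0.0584 to 0.101). Srsf9 lost its call without IL-25 library 3 or vehicle library 1 or 3 (adjusted p = 0.0528 to 0.062). Hnrnpul2 lost its call without IL-25 library 1 or 3 or vehicle library 2 or 3 (adjusted p = 0.0818 to 0.153). Srsf1 kept its call only without IL-33 library 1, 2 or 3 or vehicle library 1 among the fits that left out 1 library (adjusted p = 0.0555 to 0.207 in the others). It also lost its call with DESeq2 size factors within edgeR, without the filter and with the replicate block, so in 13 of 17 alternatives in all. The 2 groups lie wholly on opposite sides by Glycam1, so their own libraries cannot tell the side from IL-25. With the side as a term, the difference of IL-33 library 3 from IL-33 libraries 1 and 2 stands for the side. Hnrnpf then passed, while Hnrnpl, Srsf9, Hnrnpul2 and Srsf1 did not. The change of Hnrnpa0 went from -0.16 to -1.18 through those IL-33 libraries. It passed as lower, as did Hnrnpa2b1 and Hnrnpu, and Sf3b5 passed as higher. DESeq2 called the 3 that rose and neither Hnrnpul2 nor Srsf1 (adjusted p = 0.0714 and 0.097). The count of members called was 1 without IL-25 library 3 or vehicle library 3, 3 without IL-25 library 1 or vehicle library 2, 8 without IL-33 library 1 and 9 without IL-33 library 3. Cycling cell markers summed to 658 to 850 CPM with IL-25 and 207 to 261 CPM with vehicle. Fibroblast and endothelial markers (3 of 6 listed) summed to 151 to 165 CPM with IL-25 and 88.9 to 113 CPM with vehicle. Of those 3 listed, 2 had no counts in any IL-25 library, so the sum does not describe the list as a whole. B cell markers (2 of 5 listed) summed to 203 to 283 CPM with IL-25 and 135 to 195 CPM with vehicle, and T cell markers to 1919 to 2045 CPM with IL-25 and 2047 to 2246 CPM with vehicle. Thymic epithelium markers (2 of 6 listed) summed to 32.7 to 46.6 CPM with IL-25 and 4.69 to 9.15 CPM with vehicle, and the 1 of 5 mast cell and basophil markers that was listed was at 39.7 to 57 CPM with IL-25 and 23.4 to 34.0 CPM with vehicle. The part of these markers in the changes was not tested.

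The joint treatment was set against vehicle. Hnrnpf, Hnrnpab, Srsf2, Srsf7 and Sf3b4 rose, 5 of 37 members, where 8.97% of all genes were called higher. Hnrnpa1 and Hnrnpu fell, 2 of 37, where 6.67% of all genes were called lower. In all, 7 of 37 were called, a share near the 15.6% of all genes called in either direction. The median change was 0.05 over the members and -0.03 over all genes. These groups lie on the same side by Glycam1, and share their vehicle libraries with both comparisons above. Cycling cell markers summed to 665 to 796 CPM with both cytokines and 207 to 261 CPM with vehicle. T cell markers summed to 1587 to 1734 CPM with both cytokines and 2047 to 2246 CPM with vehicle, and fibroblast and endothelial markers to 202 to 222 CPM with both cytokines and 88.9 to 113 CPM with vehicle. None of these 3 sums overlapped between the groups, and their part in the changes was not tested.

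Hnrnpf was at 215, 165 and 197 CPM with both cytokines, against 152, 130.0 and 101 CPM with vehicle, a change of 0.58 ± 0.15 (edgeR adjusted p = 0.0119). It rose over vehicle in each of the 3 treated groups, with changes of 0.56 ± 0.15, 0.79 ± 0.15 and 0.58 ± 0.15 for IL-25, IL-33 and both. Hnrnpab was at 693, 595 and 633 CPM with both cytokines, against 449.9, 396 and 446 CPM with vehicle, a change of 0.57 ± 0.17 (edgeR adjusted p = 0.0214). The groups of either gene did not overlap.

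Srsf2, an SR protein needed for early spliceosome assembly, was at 194, 212 and 249.7 CPM with both cytokines, against 136, 127 and 122 CPM with vehicle, a change of 0.77 ± 0.22 (edgeR adjusted p = 0.0222), but its 3′ end overlaps Mettl23 on the opposite strand. Srsf7, an SR protein with a zinc knuckle, was at 20.3, 32.8 and 26.1 CPM with both cytokines, against 11.1, 15.2 and 15.2 CPM with vehicle, a change of 0.98 ± 0.28 (edgeR adjusted p = 0.0208). Sf3b4, the SF3B subunit that contacts RNA upstream of the branch site, was at 121, 90.3 and 93 CPM with both cytokines, against 68, 76.1 and 57.9 CPM with vehicle, a change of 0.59 ± 0.16 (edgeR adjusted p = 0.0126). In each of these genes all libraries with both cytokines lay above all vehicle libraries.

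Hnrnpa1 (15:103240432-103246692, + strand), a general splicing repressor, was at 55.2, 43.2 and 72.6 CPM with both cytokines, against 98.7, 89 and 87.3 CPM with vehicle, a change of -0.70 ± 0.22 (edgeR adjusted p = 0.0298). Hnrnpu, a scaffold-attachment protein that also binds RNA, was at 43.6, 68.4 and 72 CPM with both cytokines, against 118, 92.5 and 98.7 CPM with vehicle, a change of -0.75 ± 0.25 (edgeR adjusted p = 0.044). Both had every library with both cytokines below every vehicle library. Hnrnpa3 changed by -1.03 ± 0.38 and did not pass, although it did in 3 alternatives, and 29 other genes hold a near-identical copy of its 3′ end, so its counts are uncertain.

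The groups did not overlap for 18 of 37 members, where 36.3% of all genes did not. Hnrnpf lost its call without both-cytokine library 1 or vehicle library 3 (adjusted p = 0.064 to 0.0852). Hnrnpab lost its call without both-cytokine library 1 or 3 or vehicle library 1, 2 or 3 (adjusted p = 0.0505 to 0.0856). Srsf2 lost its call without both-cytokine library 3 or vehicle library 1, 2 or 3 (adjusted p = 0.0602 to 0.0902). Srsf7 lost its call without both-cytokine library 2 or vehicle library 1 (adjusted p = 0.11 to 0.132). Sf3b4 lost its call without both-cytokine library 1 or vehicle library 1 or 3 (adjusted p = 0.0533 to 0.0852). Hnrnpa1 lost its call without both-cytokine library 1 or 2 or vehicle library 1, 2 or 3 (adjusted p = 0.062 to 0.166). Hnrnpu kept its call only without IL-33 library 1, 2 or 3 among the fits that left out 1 library (adjusted p = 0.0562 to 0.196 in the others). DESeq2 called neither Srsf2 nor Hnrnpu but called Srsf5 as lower, and Hnrnpu also lost its call without the filter on low counts. The count of members called was 1 without vehicle library 1 or 3, 2 without both-cytokine library 1, 4 without both-cytokine library 3 or vehicle library 2, 11 without IL-33 library 3 and 12 without IL-33 library 1.

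**Figure D2:**
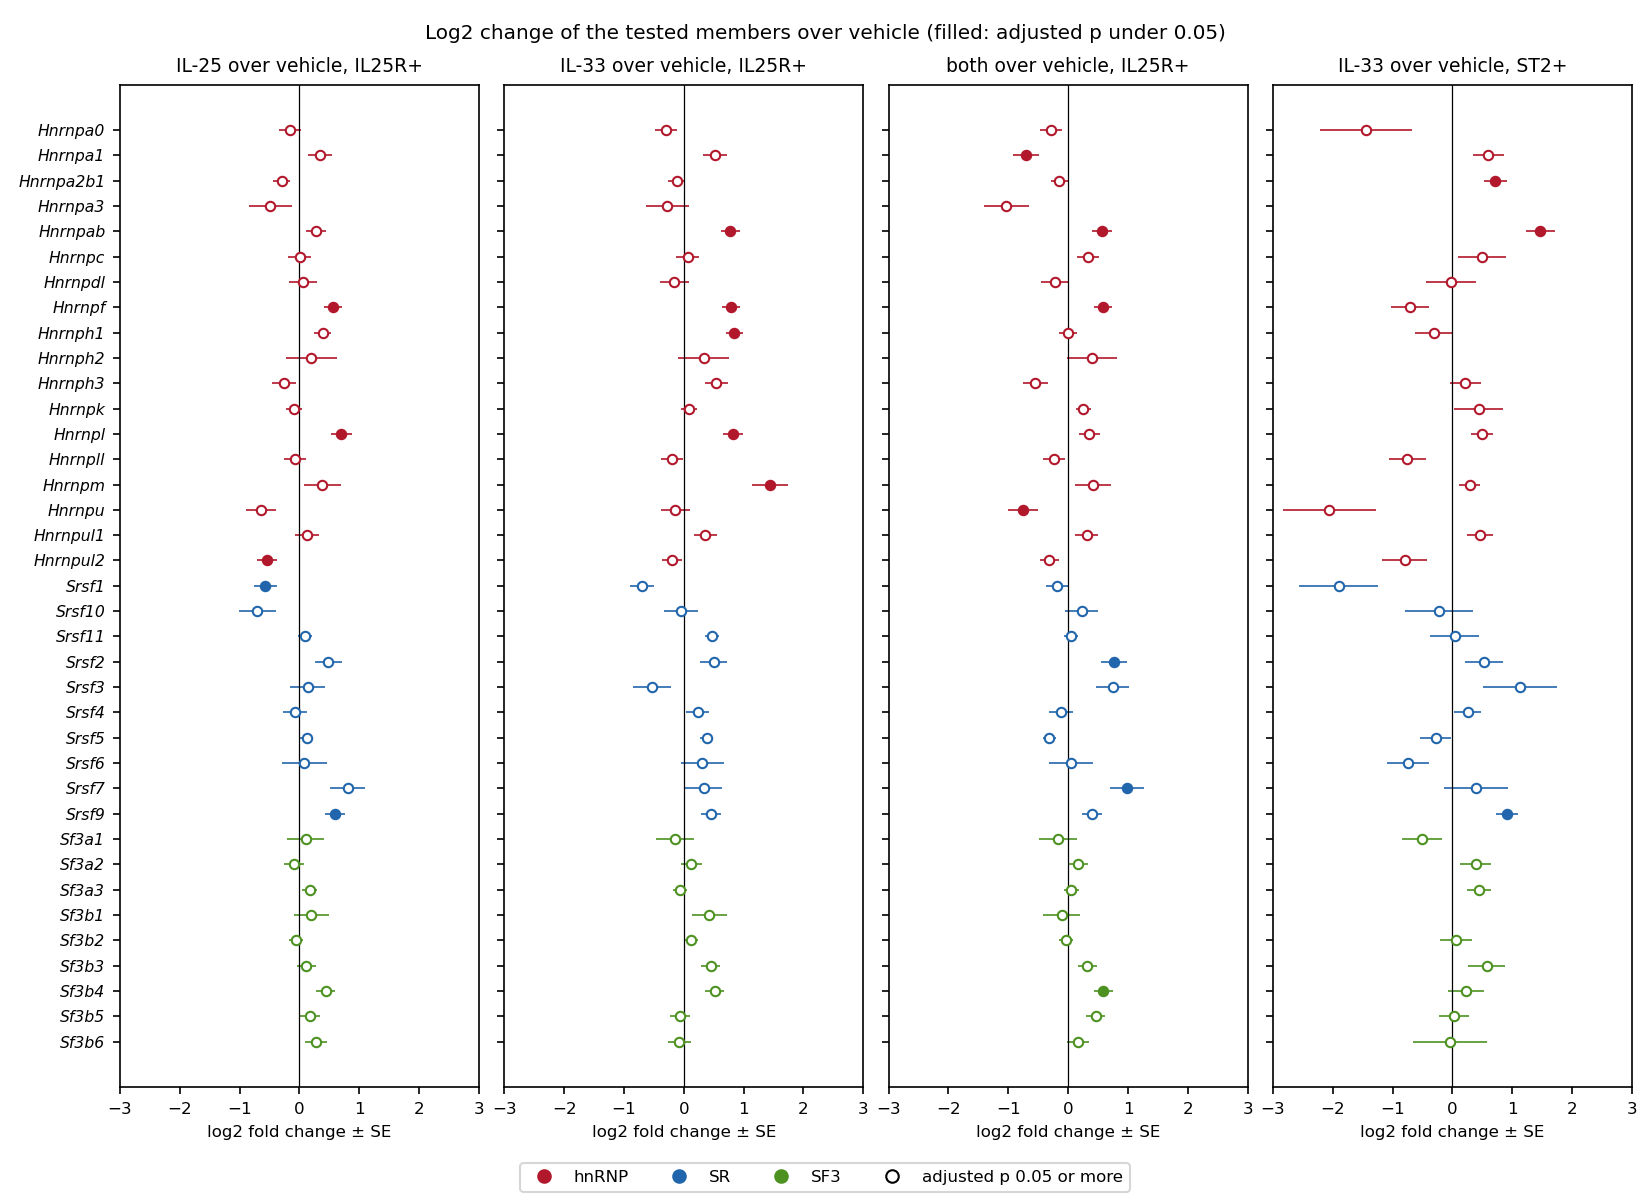
Log2 change over vehicle, with its SE, of each member tested in IL25R+ cells (IL-25, IL-33, both) and in ST2+ cells (IL-33). Filled points have an edgeR adjusted p under 0.05, and in the IL-33 panel of IL25R+ cells the 5 filled points are hnRNP genes and all lie above 0.

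Both cytokines were also compared with each cytokine alone. Over IL-33, 7 members fell and 2 rose of 37, where 7.88% of all genes were called lower, 9.29% higher and 17.2% in either direction. The groups did not overlap for 9 of 37 members, where 31.6% of all genes did not. Over IL-25, 2 members fell and 0 rose, where 1.79% of all genes were called lower, 1.36% higher and 3.14% in either direction, with 8 members at an unadjusted p under 0.05 and 2 called by DESeq2. There the groups did not overlap for 13 of 37 members, where 26.4% of all genes did not. Hnrnpa1 and Srsf5 fell in both comparisons, which share the libraries with both cytokines.

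Srsf5 (12:80945504-80950507, + strand), an SR protein, was at 462, 413 and 419.8 CPM with both cytokines, 726, 684 and 679.8 CPM with IL-33 and 601, 578 and 568 CPM with IL-25. All libraries with both cytokines lay below all those with either cytokine alone, and below the vehicle libraries, at 539, 509.6 and 557 CPM. The change was -0.69 ± 0.11 over IL-33 (edgeR adjusted p = 0.000125) and -0.43 ± 0.11 over IL-25 (edgeR adjusted p = 0.0288). Hnrnpa1 was at 55.2, 43.2 and 72.6 CPM with both cytokines, 130.0, 175 and 87.7 CPM with IL-33 and 139, 111 and 101 CPM with IL-25. Its change was -1.22 ± 0.21 over IL-33 (edgeR adjusted p = 0.000284) and -1.04 ± 0.21 over IL-25 (edgeR adjusted p = 0.00719), with no overlap in either.

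Hnrnph1, higher with IL-33 alone, was at 83.5, 67.3 and 86.6 CPM with both cytokines, against 134, 156 and 136 CPM with IL-33, a change of -0.85 ± 0.14 (edgeR adjusted p = 0.000175). Hnrnph3, a smaller relative, was at 37.8, 48.7 and 46.5 CPM with both cytokines, against 136, 68.7 and 80.4 CPM with IL-33, a change of -1.10 ± 0.20 (edgeR adjusted p = 0.000532). Both had all libraries with both cytokines below all IL-33 libraries. Hnrnpm changed by -1.03 ± 0.29 (edgeR adjusted p = 0.0184), but by -0.17 without IL-33 library 1, where it did not pass (edgeR adjusted p = 0.464). Hnrnpl changed by -0.46 ± 0.16 (edgeR adjusted p = 0.0466) and Srsf11, an SR-like protein, by -0.42 ± 0.12 (edgeR adjusted p = 0.0144).

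Srsf3 (17:29032628-29043373, + strand), the smallest SR protein, rose over IL-33. It was at 45.8, 47.6 and 45.9 CPM with both cytokines, against 19.7, 25.3 and 11.1 CPM with IL-33, a change of 1.28 ± 0.28 (edgeR adjusted p = 0.00344). The libraries with both cytokines lay close together and above all IL-33 libraries, whereas vehicle libraries, at 19, 46.9 and 21.8 CPM, spread over both ranges. Sf3b5, a small SF3B subunit, was at 324, 315 and 355 CPM with both cytokines, against 202, 169 and 325 CPM with IL-33, a change of 0.52 ± 0.16 (edgeR adjusted p = 0.031), with overlap through IL-33 library 3.

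Over IL-33, Hnrnph1 kept its call without any 1 library. Srsf5 kept its call without any 1 library, as did Srsf3, Hnrnpa1 and Hnrnph3. Srsf11 lost its call without both-cytokine library 2 or 3 (adjusted p = 0.0625 to 0.0807). Sf3b5 lost its call without IL-33 library 1 or 2 or both-cytokine library 1, 2 or 3 (adjusted p = 0.0621 to 0.18). Hnrnpm lost its call without IL-33 library 1 or both-cytokine library 2 or 3 (adjusted p = 0.054 to 0.464). Hnrnpl kept its call only without IL-33 library 3 or both-cytokine library 1 among the fits that left out 1 library (adjusted p = 0.0532 to 0.273 in the others). DESeq2 called neither Hnrnpm nor Hnrnpl, and Hnrnpl also lost its call with DESeq2 size factors within edgeR and without the filter. The count over IL-33 was 5 without both-cytokine library 2 or 3. Over IL-25, Hnrnpa1 lost its call without IL-25 library 1 or both-cytokine library 2 (adjusted p = 0.0557 to 0.0621). Srsf5 lost its call without IL-25 library 1, 2 or 3 or both-cytokine library 1, 2 or 3 (adjusted p = 0.0661 to 0.138). The count over IL-25 was 0 without IL-25 library 1 or both-cytokine library 2, 1 without IL-25 library 2 or 3 or both-cytokine library 1 or 3, and 4 without IL-33 library 3. The IL-33 libraries lie on both sides by Glycam1, and with the side as a term 3 of the 9 calls over IL-33 held, those of Hnrnph1, Srsf5 and Srsf3. Hnrnpa1, Hnrnph3, Hnrnpl, Hnrnpm, Sf3b5 and Srsf11 did not pass (edgeR adjusted p = 0.0542 to 0.954). The balance turned with that term, to 5 members higher and 2 lower, as Hnrnpa0, Hnrnpk, Srsf2 and Srsf7 passed and were higher. Over IL-25 neither call held with it (edgeR adjusted p = 0.829 for Hnrnpa1 and 0.49 for Srsf5). Cycling cell markers summed to 665 to 796 CPM with both cytokines and 297 to 331 CPM with IL-33. In the same order T cell markers summed to 1587 to 1734 and 1846 to 2188 CPM, and B cell markers to 175 to 216 and 115 to 147 CPM. Fibroblast and endothelial markers summed to 202 to 222 and 84.0 to 148 CPM. Between both cytokines and IL-25, the ILC2, T cell, fibroblast and endothelial, mast cell and basophil, and thymic epithelium sums did not overlap. With IL-25, 2 of the 3 listed fibroblast and endothelial genes had no counts. The part of these markers in the changes was not tested.

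The interaction asks whether the change with both cytokines differs from the sum of the changes with each. Hnrnpa1, Hnrnph1, Hnrnpl and Srsf5 were lower than that sum, 4 of 37 members, where 1.31% of all genes were called lower. Srsf1 was higher than it, 1 of 37, where 1.04% of all genes were called higher and 2.35% in either direction. The interaction was -1.56 ± 0.29 for Hnrnpa1 (edgeR adjusted p = 0.00754) and -1.24 ± 0.20 for Hnrnph1 (edgeR adjusted p = 0.00174). It was -1.16 ± 0.23 for Hnrnpl (edgeR adjusted p = 0.0118), -0.81 ± 0.15 for Srsf5 (edgeR adjusted p = 0.008) and 1.09 ± 0.27 for Srsf1 (edgeR adjusted p = 0.039).

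For Hnrnph1 the changes over vehicle were 0.39 ± 0.14 with IL-25, 0.84 ± 0.14 with IL-33 and -0.00 ± 0.15 with both. For Hnrnpl they were 0.70 ± 0.17, 0.82 ± 0.17 and 0.36 ± 0.17 in the same order. For Srsf1 they were -0.57 ± 0.19, -0.70 ± 0.20 and -0.18 ± 0.19, with 55.9, 43.8 and 52.2 CPM in the libraries with both cytokines. With the side by Glycam1 as a term, 0 of these 5 calls held and 2 other members, Hnrnpa0 and Hnrnpu, passed, and the interaction of Hnrnpa1 was -0.18. Over all alternatives, that term included, the interaction was -1.32 to -1.08 for Hnrnph1 and -1.26 to -0.99 for Hnrnpl. It was -0.86 to -0.72 for Srsf5 and 0.94 to 1.38 for Srsf1. Srsf1 kept its call only without IL-33 library 1 or 3 or vehicle library 1 among the fits that left out 1 library (adjusted p = 0.0648 to 0.123 in the others), while the other 4 kept theirs in every such fit. The count of members called was 9 without IL-33 library 3.

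IL-33 was compared with vehicle in ST2+ cells, whose sort marker is the IL-33 receptor. Hnrnpab, Srsf9 and Hnrnpa2b1 rose, 3 of 34 members, where 8.52% of all 7626 genes tested were called higher, a share near that of all genes. No member fell (edgeR), where 8.03% of all genes were called lower, 10 members had an unadjusted p under 0.05 and DESeq2 called 5, the same 3 and, as lower, Hnrnpu and Srsf1. The median change was 0.22 over the members and 0.00 over all genes. No SF3 gene passed, with 1 of 8 at an unadjusted p under 0.05 and 0 called by DESeq2.

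Hnrnpab was at 1252, 715, 901 and 1247 CPM with IL-33 and 403, 319.7, 332 and 430.3 CPM with vehicle, a change of 1.47 ± 0.24 (edgeR adjusted p = 0.00305). Srsf9 was at 216, 214, 191 and 225 CPM with IL-33 and 113, 92.1, 102 and 139 CPM with vehicle, a change of 0.91 ± 0.18 (edgeR adjusted p = 0.0083). Hnrnpa2b1 (6:51460932-51469894, − strand), a relative of Hnrnpa1 that also binds microRNA precursors, was at 333, 214, 327 and 321 CPM with IL-33 and 179, 164, 198 and 187 CPM with vehicle, a change of 0.72 ± 0.20 (edgeR adjusted p = 0.0293). In none of these 3 genes did the groups overlap. They did not overlap for 5 of 34 members in all, where 22% of all genes did not, and the counts of Hnrnpab carry the same doubt on strand as above.

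IL-33 library 2 was the lowest of its group for Hnrnpk, at 319, 66.8, 384 and 363 CPM in the IL-33 libraries, against 207, 184, 270.2 and 183 CPM with vehicle. Srsf3 was at 50.4, 4.45, 60.2 and 56.7 CPM with IL-33 and 23.8, 21.7, 32.7 and 7.4 CPM with vehicle, a change of 1.13 ± 0.61 that did not pass, and that library was again the lowest. Hnrnpu was at 2.41, 7.79, 9.6 and 0.841 CPM with IL-33 and 15.5, 32.5, 24.1 and 4.81 CPM with vehicle, a change of -2.06 ± 0.78 that did not pass. Srsf1 was at 1.81, 4.45, 8.96 and 0.841 CPM with IL-33 and 16, 10.8, 15.5 and 7.77 CPM with vehicle, a change of -1.90 ± 0.66 that did not pass. For Hnrnpu and Srsf1 the groups overlapped through vehicle library 4. Both genes were lowest in library 4 of each group, the deepest of its group, at 5453444 total counts with IL-33 and 2736408 with vehicle. The median total was 3100602 counts with IL-33 and 1187943.5 with vehicle, and the part of depth in these changes was not tested.

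Hnrnpab kept its call without any 1 library, and so did Srsf9. Hnrnpa2b1 kept its call only without IL-33 library 2 among the fits that left out 1 library (adjusted p = 0.0537 to 0.112 in the others). The count of members called was 11 without IL-33 library 2 and 5 without IL-33 library 3. T cell markers summed to 213 to 368 CPM with IL-33 and 565 to 714 CPM with vehicle, ILC2 markers to 2388 to 3666 CPM with IL-33 and 3853 to 4544 CPM with vehicle, and B cell markers (2 of 5 listed) to 32.3 to 51.2 CPM with IL-33 and 18.9 to 31.1 CPM with vehicle. None of these sums overlapped, and their part in the changes was not tested.

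**Figure D3:**
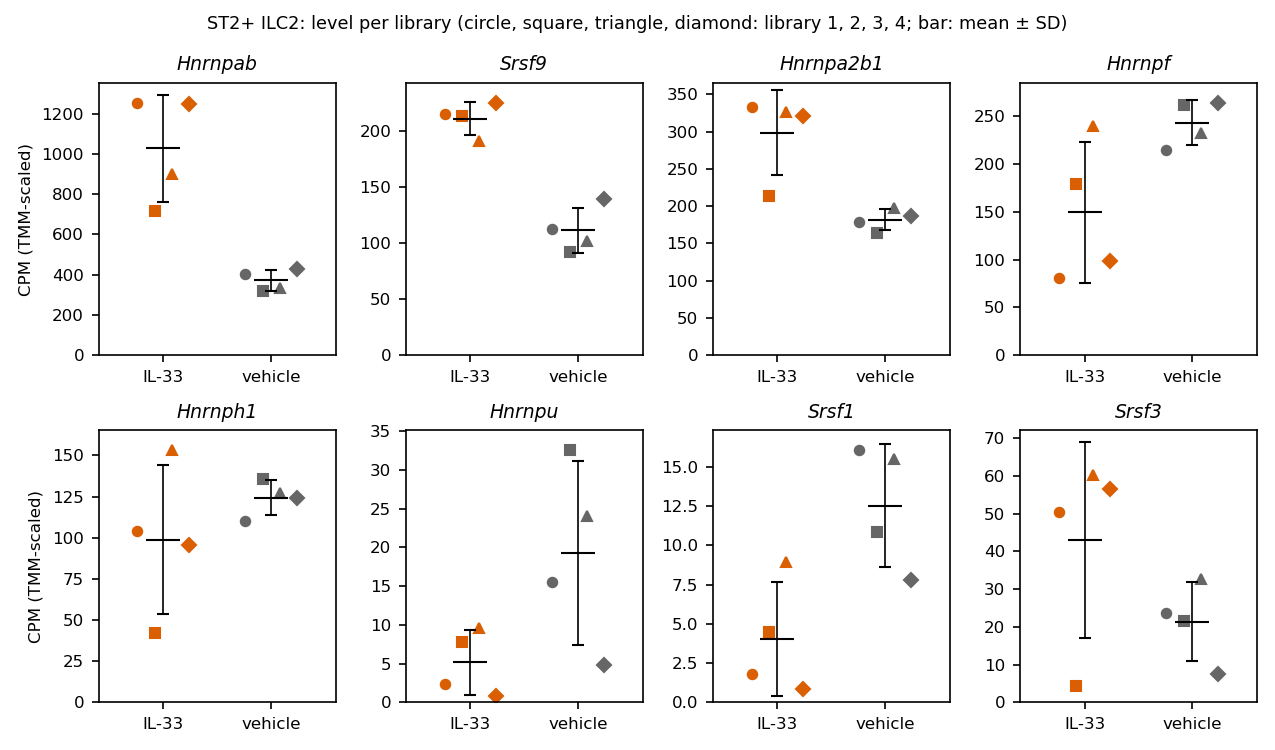
TMM-scaled CPM of 8 members in each ST2+ library treated with IL-33 or vehicle. Symbols mark the library number and bars the mean ± SD of 4 libraries, and all IL-33 libraries lie above all vehicle libraries for Hnrnpab, Srsf9 and Hnrnpa2b1.

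The change with IL-33 was compared between ST2+ and IL25R+ cells in a fit of all 20 libraries, in which 36 members were tested. Counts of the 2 populations were deposited separately, so a difference between populations cannot be told apart from one between the 2 sets of libraries. The biological coefficient of variation, a measure of spread, was 0.221 in this fit, 0.328 in ST2+ and 0.128 in IL25R+ libraries. Hnrnpa2b1 differed upward in ST2+ cells and Hnrnpf downward, 1 of 36 members each, where 4.66% of all 8964 genes were called higher and 6.85% lower. In all, 2 of 36 were called, where 11.5% of all genes were called in either direction, so members were not called more often than other genes. Hnrnpf was at 80.8, 179, 239 and 98.4 CPM in ST2+ cells with IL-33 and 215, 262, 232 and 263 CPM with vehicle. These groups overlapped, and the change of -0.71 ± 0.32 in ST2+ cells did not pass (edgeR adjusted p = 0.146). In IL25R+ cells Hnrnpf rose with IL-33, and the difference between the changes was -1.48 ± 0.37 (edgeR adjusted p = 0.0125). Hnrnpa2b1 was at 432, 396 and 272 CPM in IL25R+ cells with IL-33 and 391, 399 and 408 CPM with vehicle, and the difference was 0.90 ± 0.26 (edgeR adjusted p = 0.0291).

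The difference for Hnrnph1 was -1.09 ± 0.36 and did not pass (edgeR adjusted p = 0.0546), with 104, 42.3, 153 and 95.7 CPM in ST2+ cells with IL-33 and 110.2, 135, 127 and 124 CPM with vehicle. It passed in 5 alternatives, among them DESeq2, DESeq2 size factors within edgeR and the fits without ST2+ IL-33 library 2 or 3 (lowest adjusted p = 0.00833). Hnrnpab, higher with IL-33 in both populations, had a difference of 0.75 ± 0.32 that did not pass (edgeR adjusted p = 0.128), but did in 3 alternatives (lowest adjusted p = 0.0215). No SR gene passed (edgeR), with 2 of 10 at an unadjusted p under 0.05 and 0 called by DESeq2. No SF3 gene passed (edgeR), with 1 of 9 at an unadjusted p under 0.05 and 1, Sf3a3, called by DESeq2. Hnrnpf kept its call without any 1 library. Hnrnpa2b1 lost its call without IL25R+ IL-33 library 3, ST2+ IL-33 library 1 or 4, IL25R+ vehicle library 3 or ST2+ vehicle library 1 or 2 (adjusted p = 0.0511 to 0.0672). The count of members called was 10 without ST2+ IL-33 library 2, 5 without ST2+ IL-33 library 3, and 1 without ST2+ IL-33 library 1 or 4, IL25R+ vehicle library 3 or ST2+ vehicle library 1 or 2.

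Summed by family, hnRNP transcripts were at 4220.1, 3053 and 2638 CPM in IL25R+ libraries with IL-33 and 2515, 2454 and 2501 CPM with vehicle, all IL-33 libraries above all vehicle libraries. They were at 2746, 2539 and 2475 CPM with IL-25, which overlapped with vehicle, and 2778, 2679 and 2792 CPM with both cytokines, which did not. In ST2+ cells the hnRNP sum was 3119, 2143, 2868 and 3187 CPM with IL-33 and 1970.4, 1929, 1925 and 2007 CPM with vehicle, without overlap. SR transcripts summed to 1542, 1251 and 1225 CPM with IL-33 and 1068, 1048 and 1073 CPM with vehicle in IL25R+ cells, also without overlap. They were at 1238, 1140.0 and 1166 CPM with IL-25, again above all vehicle libraries, and at 1119, 1055 and 1116 CPM with both cytokines, with overlap. SF3 sums were 1161 to 1302 CPM with IL-25, 1110 to 1276 CPM with IL-33, 1260 to 1342 CPM with both cytokines and 1084 to 1153 CPM with vehicle, so that they overlapped with vehicle under IL-33 but not under IL-25 or both. In ST2+ cells the SR sum was 658 to 1174 CPM with IL-33 and 731 to 948 CPM with vehicle, and the SF3 sum 1136 to 1553 CPM with IL-33 and 1012 to 1254 CPM with vehicle, both with overlap. The sums weigh genes with high levels most. The separation of hnRNP sums between IL-33 and vehicle rested on Hnrnpab, whose counts are uncertain. Hnrnpab was at 616 CPM in IL-33 library 3 of IL25R+ cells, against 396 to 450 CPM with vehicle. In IL-33 library 2 of ST2+ cells it was at 715 CPM, against 320 to 430 CPM with vehicle. With Hnrnpab left out, each of these libraries lay below all vehicle libraries of its population. In IL25R+ cells the genes with the highest levels were Hnrnpab, Hnrnpk and Hnrnpa2b1 among hnRNP genes, Srsf5, Srsf2 and Srsf11 among SR genes and Sf3b5, Sf3b2 and Sf3b6 among SF3 genes.

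**Figure D4:**
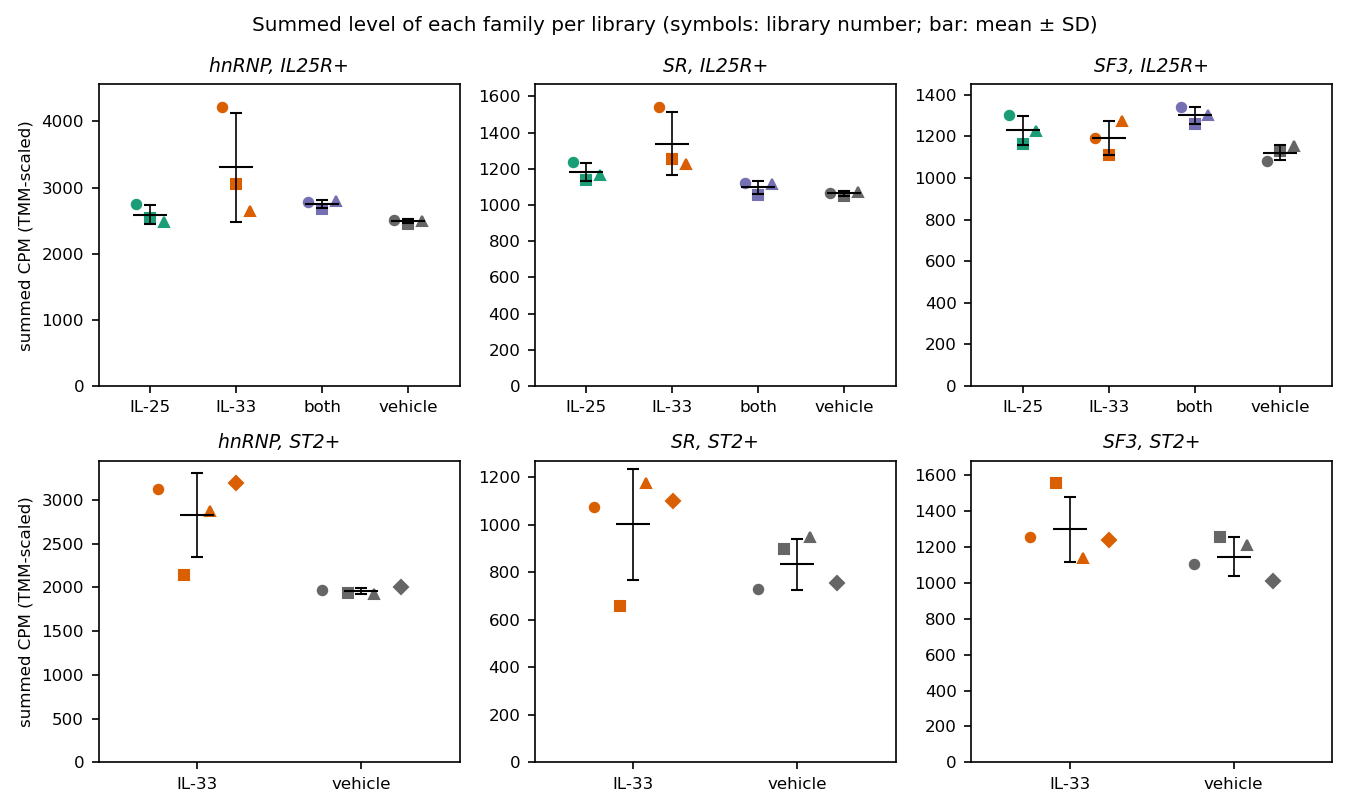
Summed TMM-scaled CPM of the hnRNP, SR and SF3 genes in each library of IL25R+ cells (IL-25, IL-33, both, vehicle) and ST2+ cells (IL-33, vehicle). Symbols mark the library number and bars the mean ± SD, and all IL-33 libraries lie above all vehicle libraries for hnRNP in both populations and for SR in IL25R+ cells. For hnRNP this does not hold with Hnrnpab left out.

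Other parts of the splicing machinery were described from 6 lists of genes. Of 19 tested genes for snRNP core and Sm proteins, 6 rose and 0 fell with IL-25, and 9 rose and 1 fell with both cytokines. Within the list it is the Sm proteins that form the rings of the spliceosomal particles. Of all genes, 9.07% were called higher and 5.9% lower with IL-25, and 8.97% and 6.67% with both. Snrpa, a U1 snRNP protein, changed by 0.85 ± 0.15 with IL-25 (edgeR adjusted p = 0.000541) and 0.78 ± 0.15 with both (edgeR adjusted p = 0.00127). Snrnp70, another U1 protein, fell with both (-0.40 ± 0.13, edgeR adjusted p = 0.0344). The median change of the list was 0.42 with IL-25 and 0.48 with both, against -0.03 over all genes in each. With IL-33 in IL25R+ cells no gene of the list passed (edgeR), with 2 at an unadjusted p under 0.05 and 0 called by DESeq2. In ST2+ cells 2 of 19 rose with IL-33, where 8.52% of all genes were called higher, Snrpa1 (1.52 ± 0.21, edgeR adjusted p = 0.00119) and Snrnp40 (0.90 ± 0.26, edgeR adjusted p = 0.0396).

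Of 7 tested kinases and importers of SR proteins, Clk1, a kinase that phosphorylates SR proteins, fell with IL-25 (-0.79 ± 0.16, edgeR adjusted p = 0.00156) and with both (-0.91 ± 0.16, edgeR adjusted p = 0.000391). Its relative Clk4 fell with both over IL-33 (-1.32 ± 0.24, edgeR adjusted p = 0.000673). Of 22 tested tissue-regulated splicing regulators, 2 rose and 5 fell with IL-25 and likewise with both, so that the count of those that rose was near the shares over all genes just given. Among them Tia1 changed by -0.91 ± 0.15 and Tardbp by -0.88 ± 0.15 with both, and Rbm3 by 0.75 ± 0.19. Of 15 SR-related regulators 1 rose, Nono, and 1 fell, Luc7l2, with IL-25 and again with both, also near those shares.

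Of 24 tested PRP proteins of the spliceosome, 1 rose with IL-25, Prpf38a (0.48 ± 0.14, edgeR adjusted p = 0.0253), and with both Eftud2 rose (0.56 ± 0.14) and Slu7 fell (-0.77 ± 0.20). These counts are near the shares over all genes given above. At an unadjusted p under 0.05 (edgeR) there were 9 of 24 with IL-25 and 6 with both. Of 10 factors of the branch site, which work beside SF3, none passed in any of the 8 comparisons (edgeR). At an unadjusted p under 0.05 there were 2 of 10 with IL-25, 1 with IL-33, 1 with both, 2 with both over IL-25, 0 with both over IL-33, 1 for the interaction, 5 with IL-33 in ST2+ cells and 3 for the difference between populations. DESeq2 called 1 in each of the last pair and 0 in the other comparisons. With IL-33 in IL25R+ cells none of the 6 lists had a gene that passed by edgeR or DESeq2, while 2 snRNP, 1 branch-site, 5 PRP, 3 kinase or importer, 3 SR-related and 10 tissue-regulated genes had an unadjusted p under 0.05.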

How the data were processed

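Gene counts were deposited by the authors as whole numbers per gene symbol and library, in 1 table for IL25R+ and 1 for ST2+ cells. Per the submitters' processing notes, bcl2fastq, cutadapt, STAR 2.5.2b, HTSeq, DESeq2 and the mm10 build were used; their order, the strand of counting and any use of molecular identifiers are not given in the sources used here. Members and lists were chosen with earlier results of these data known, so their counts are not independent evidence.

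Counts of all genes were tested with edgeR 4.0.16 (quasi-likelihood, TMM, R 4.3.3) after filterByExpr (minimum count 10, total 15, proportion 0.7), with Benjamini-Hochberg adjustment over 8850 genes in the 12 IL25R+ libraries, 7626 in the 8 ST2+ libraries and 8964 in all 20. Alternatives were DESeq2 1.42.0, its size factors within edgeR, no filter, the replicate number as a block, the side by Glycam1 (10 CPM) as a term, and each library left out. On simulated counts, 78% of genes changed by 1 on the log2 scale were recovered for IL-25 over vehicle, 8% for IL-33 over vehicle in ST2+ cells and 14% for the difference between populations. At a change of 2 these were 100%, 84% and 87%.

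No 2 replicates agreed within sampling noise (chi-square per degree of freedom 1.89 or more). Genes named are members that passed in any comparison, the 3 members of each family with the most counts, the 2 with the largest change per direction over vehicle, and up to 2 passing genes per direction of each list. Some further genes (Hnrnpk, Hnrnph1 in ST2+ cells and others) were named after their values were seen. Positions are from GENCODE M21 (GRCm38, the same assembly as mm10) and copies of 3′ ends were sought with blastn 2.17.0 over 200 bases (150 or more aligned at 95% identity or more). The 8 motifs were chosen by hand, and all 8 are reported.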

Additional observations from a re-analysis of the deposited data

Results flagged for a closer look

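In ST2+ cells, 5 of 68 groups of 4 libraries held a library far from the other 3 (7.35%; chance flags about 1 in 20). IL-33 library 2 was the one in 4 of them: Hnrnpa2b1 at 214 CPM, Sf3a3 at 116 CPM and Srsf5 at 111 CPM were the lowest of their group, and Sf3b6 at 173 CPM was the highest. The other was Hnrnpl at 117 CPM in vehicle library 3, the lowest of its group.

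In IL25R+ cells the change with IL-33 differed with and without IL-25 by the interaction test for 5 members: Hnrnpa1 (-1.56), Hnrnph1 (-1.24), Hnrnpl (-1.16), Srsf5 (-0.81) and Srsf1 (1.09), on the log2 scale. The change with IL-33 differed between ST2+ and IL25R+ cells, whose counts were deposited separately, for Hnrnpa2b1 (0.90) and Hnrnpf (-1.48).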

How the results depend on the processing

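No member's called change turned direction under any alternative, and 175 of 645 values of called members lost their call. Counts of members called that moved by over 1.5 times were 3 with DESeq2 for IL-25 over vehicle, and 1 without the filter for IL-33 over vehicle in IL25R+ cells. With the side by Glycam1 as a term they were 11 for both over vehicle, 0 for both over IL-25 and 2 for the interaction; elsewhere the count stayed within 1.5 times but the calls did not, with 1 of 5 kept for IL-25, 2 of 5 for IL-33 and 3 of 9 for both over IL-33. No group but IL-33 has libraries on each side, so that group alone sets this term. With DESeq2 they were 5 in ST2+ cells and 4 for the difference between populations. The cause was not tested. Leaving out 1 library gave 1 to 9 members for IL-25, 0 to 6 for IL-33 and 1 to 12 for both over vehicle. It gave 0 to 4 for both over IL-25, 5 to 10 for both over IL-33, 4 to 9 for the interaction, 2 to 11 in ST2+ cells and 1 to 10 for the difference.

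Replicate numbers were not taken to pair the libraries: deviations of same-numbered libraries correlated at -0.13 to 0.13 in IL25R+ and 0.02 to 0.25 in ST2+ cells, where 2 of 4 pairs were over 0.1 and not every library correlated best with its own number. With the replicate block the count was 4 for IL-25, 5 for IL-33 and 8 for both over vehicle, 2 for both over IL-25, 9 for both over IL-33, 4 for the interaction, 6 in ST2+ cells (3 higher and 3 lower, Hnrnpa0, Hnrnpu and Srsf1) and 6 for the difference (2 higher and 4 lower). The biological coefficient of variation was 0.328 in ST2+ and 0.128 in IL25R+ libraries, and what part depth has in the changes that can be detected was not tested.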
